A study of Macaca mulatta with 23 samples.

Results

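The stretch of chromosome 6 from 26000000 to 28200000 in human build hg19 holds the major histone gene cluster with neighbouring transfer RNA and butyrophilin genes. All deposited positions inside these limits were taken, 389 of 444312 in the table. They come from reduced representation bisulfite sequencing, in which DNA is cut with MspI and CpG-rich fragments are sequenced after bisulfite treatment. Bisulfite leaves methylated cytosines in place and converts unmethylated ones. DNA came from 23 rhesus monkeys (Macaca mulatta) and from their central amygdala nucleus, a part of the brain involved in fear and anxiety, with 1 hemisphere per animal, 11 left and 12 right. Each monkey had an anxious temperament score, from -1.48 to 1.43 with a mean of 0.0678 ± 0.739 (SD, n = 23), and an age in years that ran from 1.1 to 2.13 and averaged 1.34 ± 0.219 (SD, n = 23). The labels give no treatment or genotype and no sorting of cells, so a level is taken as an average over the cell types of the tissue.

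The genes of this cluster encode the replication-dependent histones. These are the core proteins H2A, H2B, H3 and H4, around which DNA is wound, and the linker histone H1. Their transcripts are short, mostly lack introns and a poly(A) tail, and are made mainly while DNA is replicated. Transfer RNA genes are transcribed by RNA polymerase III from promoters inside the gene. Butyrophilins are membrane proteins of the immunoglobulin superfamily, among them BTN1A1, a protein of milk fat secretion. Methylation of CpG sites is usually low at CpG-rich promoters of active genes and high in the DNA between them. In the RefSeq gene table of the macaque assembly T2T-MMU8v2.0, 44 named histone genes lie in 1 neighbourhood of chromosome 4 (6 of H1, 13 of H2A, 15 of H2B, 3 of H3 and 7 of H4). The genes BTN1A1, BTN2A1, BTN2A2 and BTN3A3 and 89 transfer RNA genes lie among them. That table belongs to another genome build, so it was used for names alone and no measured position was assigned to a gene.

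The deposited positions of these macaque libraries are human coordinates. A cytosine that differs between the species, or between monkeys, can read as unmethylated. Of the 389 positions 46.8% had a value in all 23 monkeys, against 36.1% of the whole table, and each had a value in at least 17. Left 3 lacked 35.5% of the positions and right 12 lacked 23.4%, where the median over monkeys was 3.6%. Left 3 and right 9 were also left out together as an alternative, with values given where that changed a direction or a call. Right 9 lacked 9.77% of the positions, fewer than right 12, which was left out only as a single monkey.

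Most of the short measured stretches of the cluster were either nearly unmethylated or mostly methylated. With gaps of at most 200 bp, the 389 positions fell into 37 runs, numbered here along the chromosome, which together covered 4423 bp or 0.201% of the stretch. In 18 runs the mean level was under 20%. It was under 5% in 16 of these, and 17.6% and 12.45% in runs 15 and 19. Run 15 was low at 3 of its 4 positions (5.71%, 0.0952% and 1.14%), and its position 26971583 averaged 63.6%. In 18 other runs the mean level was over 50%. A single run, number 35, lay between, at 42.8% ± 20.9 (SD, n = 20). Among the runs with at least 3 positions, 50% were low, 47.2% high and 2.78% in between. On the rest of the autosomes these shares were 34.4%, 45.7% and 19.9%. Runs are not replicates, so this contrast is a description without a test. The limits of 20% and 50% were set after the run levels had been seen, which can affect the shares of the cluster.

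**Figure D1:**
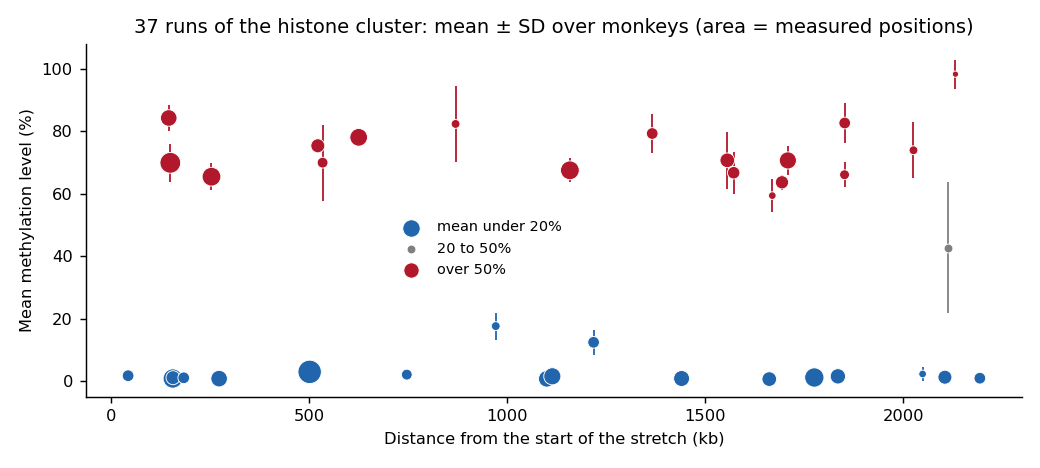
Mean methylation level (%) of each of the 37 runs, with the SD over monkeys as a bar, against distance from the start of the stretch in kb; the area of a point grows with the number of measured positions. The 18 runs under 20% and the 18 runs over 50% both occur along the whole stretch, in places several of 1 class in a row, and run 35 alone lies between.

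Low and high runs were interleaved. Each of the 11 windows of 200 kb held at least 1 low and at least 1 high run. The class changed at 21 of 36 steps between neighbouring runs, counting the steps into and out of run 35. This order was not compared with a random order of runs. The shortest distance between a low and a high run was 6092 bp, between run 3 (69.9% ± 6.05, SD, n = 23) and run 4 (0.848% ± 0.591, SD, n = 23). Next came 7476 bp between run 24, at 0.671% ± 0.735 (SD, n = 21), and run 25, at 59.4% ± 5.35 (SD, n = 19). The pairs of runs that lay closest together had the same class. Runs 4 and 5, with 427 bp between them, stood at 0.848% and 1.12%, and runs 30 and 31, with 299 bp between them, at 66.1% and 82.7%. The limits of the stretch fall between run 1 (1.75%) and a run of 8 positions outside at 45.1%, and between run 37 (0.955%) and a run of 5 positions outside at 74.7%.

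Low and high runs occurred among runs with few and with many measured positions. Of the 19 runs with 10 to 49 positions 11 were low and 8 high. Of the 17 runs with 3 to 9 positions 7 were low, 9 high and 1 in between. No run reached 50 positions, a class that held 15.9% of the positions on the rest of the autosomes. Spearman's rho between positions per 100 bp and run level was -0.116 over the 36 runs of 3 or more positions, and -0.205 over 31475 runs of the rest of the autosomes. The cytosines on both strands of a CpG lie 1 bp apart. When positions 1 bp from the next were merged into 1 site, rho was -0.129 and -0.121. Adjoining CpGs with no base between them were joined by this merging too. Runs share libraries and animals, so these values are descriptions.

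The runs with the most positions per 100 bp, when both strands are counted, were run 9, which was low, and run 3, which was high. Run 9, from 26501842 to 26501954 in band 6p22.2, held 28 positions, or 24.8 per 100 bp. Its level ran from 2.14% over 2.96% (median) to 4.04% in left and from 1.57% over 2.97% (median) to 4.64% in right samples. Run 3, from 26150159 to 26150294 in the same band, held 22 positions, or 16.2 per 100 bp. Its level ran from 57.5% over 73.1% to 76% in left and from 52.9% over 69.3% to 76.1% in right samples. The lowest right level, in right 9, came from 14 of the 22 positions, and the lowest left level, in left 11, from all 22. The 2 runs did not overlap in any monkey. In sites, run 9 had 11.5 and run 3 had 7.35 per 100 bp, since 15 and 12 of their positions were merged with a neighbour. The merging also joined adjoining CpGs, at 26501903 to 26501906 in run 9 and 26150163 to 26150166 in run 3. Their densities in CpGs are thus somewhat higher than these site densities. By sites the order was another one, led by run 1 at 14.9 per 100 bp (1.75%), with runs 14 and 35 next at 12.9 per 100 bp (82.4% and 42.8%).

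The other runs rich in positions divided in the same way. Run 4 (26156386 to 26156564, 19 positions) averaged 0.848% and did not exceed 2.16% in any monkey. Run 28 (27775525 to 27775658 in band 6p22.1, 19 positions) averaged 1.18% ± 0.698 (SD, n = 23), with 3.42% in right 9 as its highest value. Run 17 (27114266 to 27114419, 15 positions) averaged 1.57% ± 1.74 (SD, n = 23). These 3 runs and run 9 were low at every measured position. The high ones among the 10 runs with the most positions were runs 7, 18, 12, 27 and 2, besides run 3. Run 7 (26254090 to 26254293, 18 positions) averaged 65.5% ± 4.24 (SD, n = 23), and run 18 (27158599 to 27158722, 18 positions) 67.5% ± 3.82 (SD, n = 23).

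Among runs of 10 or more positions, 5 stood highest. Run 2, from 26146202 to 26146396 with 14 positions, averaged 84.3% ± 4.09 (SD, n = 22). Run 12, from 26625589 to 26625791 with 16 positions, averaged 78.1% ± 1.27 (SD, n = 23) and ran from 76.3% to 81.1%, the narrowest range of these 5 in points. Run 10, from 26522438 to 26522538 with 10 positions, averaged 75.4% ± 2.21 (SD, n = 22). Run 22 and run 27 averaged 70.7% ± 9.03 (SD, n = 22) and 70.7% ± 4.77 (SD, n = 23). Run 2 and run 12 did not overlap in left samples, where run 2 ran from 81.8% to 86.2% and run 12 from 76.8% to 79.4%. In right samples they did, at 78.1% to 94.2% and 76.3% to 81.1%. The highest levels of run 2, in right 7 (94.2%), right 4 (93.1%), right 3 (91.8%) and left 4 (86.2%), each came from 13 of 14 positions. Right 9 also had 13, at 80.3%. Position 26146302 of this run averaged 11% and had values in 18 monkeys, so a plain mean can shift where it is missing.

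High runs were not high throughout. In the 17 high runs with at least 3 positions, 25 of 177 positions (14.1%) had a mean under 20%, and 13 of these runs held such a position. On the rest of the autosomes the share was 15.2%. The other positions of the high runs in the cluster averaged 82.3%, with a median of 86.9%. In run 10, positions 26522438 and 26522531 averaged 4.64% and 0.409%, and the other 8 positions of the run were over 80%. In run 26, position 27693840 was at 0 in all 22 monkeys with a value, whereas the median position of that run stood at 87.9%. Of the 25 low positions, 12 did not exceed 20% in any monkey and 23 did not exceed 50%. The part of species differences in these low positions was not tested.

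**Figure D2:**
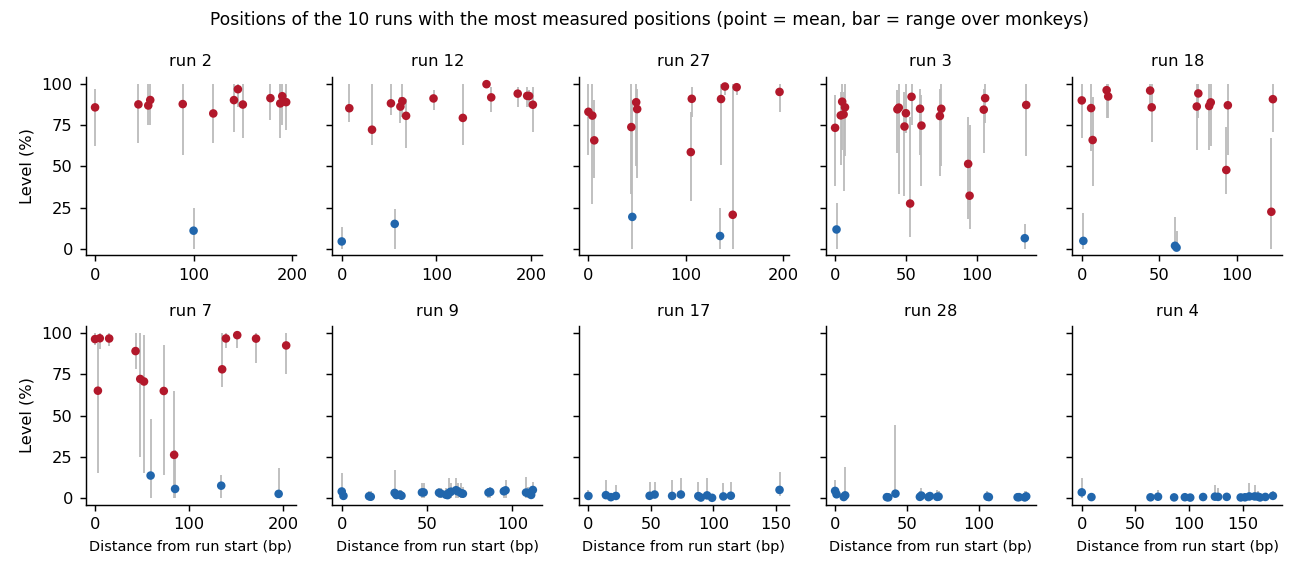
Methylation level (%) of each position in the 10 runs with the most measured positions, against distance from the start of the run in bp; points are means over monkeys (blue under 20%), and grey bars run from the lowest to the highest monkey. Runs 9, 17, 28 and 4 are low at every position, whereas runs 2, 12, 27, 3, 18 and 7 mix high positions with 1 to 4 low ones.

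Many of the low positions lay at the ends of runs. Among the first and last positions of the high runs, with any partner 1 bp away, 11 of 38 were low (28.9%), against 14 of 139 (10.1%) further inside. On the rest of the autosomes the shares were 32.8% and 9.75%. Pairs of positions 1 bp apart showed the pattern site by site. At the start of run 3, position 26150159 averaged 73.3% and 26150160 averaged 11.7%, and at its end 26150293 averaged 6.44% and 26150294 averaged 87.1%. At the start of run 18, 27158599 averaged 89.9% and 27158600 averaged 4.83%, and at its end 27158721 averaged 22.5% and 27158722 averaged 90.7%. At each of these 4 ends the cytosine on the inner side of the pair was the low one. Per the labels' protocol, the MspI fragments were end-repaired before the bisulfite step. End repair can place unmethylated cytosines at fragment ends, so a low value at a run's end may not be a methylation level of the tissue, and the part of end repair was not tested. Over 2680 pairs at the start of high runs on the rest of the autosomes, the first cytosine had a median of 86.7% and the second 5.25%. Over 2707 pairs at the end, the medians were 5.11% and 86.9%, and over 25160 pairs inside runs 86.7% and 86.5%. The cluster held 57 pairs in all, 42 of which (73.7%) differed by at most 10 points and 8 (14%) by more than 50 points. On the rest of the autosomes these shares were 86.6% and 5%. The 57 include the pairs of runs 9, 28 and 29, which were low on both cytosines. Inside high runs the cluster had 23 pairs. The first cytosine was higher by more than 50 points in 1 of them and the second in 3, against 2.73% and 2.84% of such pairs on the rest of the autosomes. These 57 and the pairs inside runs include steps of 1 bp from a CpG to an adjoining CpG.

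Levels varied little over monkeys in low runs and more in high runs. The median SD of a run was 0.765 points in low runs and 5.06 points in high runs. Over the 319 positions with values in at least 20 monkeys, the median SD was 2.71 points, against 2.95 points on the rest of the autosomes. For positions under 20% it was 1.35 points in the cluster and 1.61 points on the rest of the autosomes. For positions between 20% and 80% it was 18.1 and 13.7 points, and for positions over 80% it was 7.2 and 5.86 points. These medians were not compared with a test.

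**Figure D3:**
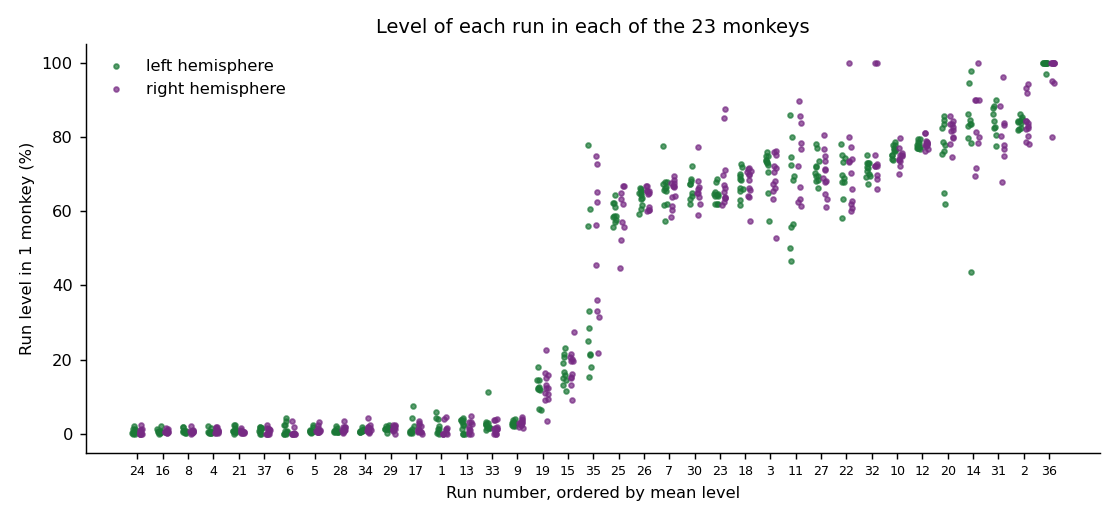
Level (%) of each of the 37 runs in each monkey, with runs ordered by mean level; green points are left and purple points right samples. The low runs form a flat band near 0, runs 19, 15 and 35 lift off it, and the 18 high runs have means of 59.4% or more, with left and right samples intermingled.

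Run 35, from 28112602 to 28112632 with 4 positions, varied most. It ran from 15.3% over 26.8% (median) to 77.8% in left samples and from 21.8% over 50.9% to 74.8% in right samples. High and low values occurred in both hemispheres, with left 1 highest, then right 2 at 74.8% and right 1 at 72.8%, and left 11 lowest. Its 4 positions had means from 35.2% to 50.7%. Run 14 (26870079 to 26870109, 4 positions) averaged 82.4% ± 12.3 (SD, n = 19), with left 11 at 43.8% and the next lowest, right 5, at 69.5%. Run 11 (26534473 to 26534523, 6 positions) averaged 70% ± 12.2 (SD, n = 20) and ran from 46.7% in left 8 to 89.7% in right 1.

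In the other widely varying runs, the highest values came from monkeys with few positions, whereas the lowest came from monkeys with all positions. Run 22 (27555849 to 27555985) reached 100% in right 2, which had values at 5 of its 11 positions, and the next highest level was 80% in right 12, also at 5 positions. Run 32 (28025764 to 28025839, 4 positions) averaged 74% ± 8.95 (SD, n = 21). It stood at 100% in right 8 and right 11, each with a value at 1 position, and between 66% and 75% in all other monkeys. A plain mean over a run can thus shift with the positions present.

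At 55 of the 389 positions, in 15 runs, the lowest and the highest monkey were more than 50 points apart. Position 27708851 in run 27 had the largest SD of the cluster, 35.6 points, with a mean of 20.6% (n = 19). It was at 5% or less in 13 monkeys, at 50% or more in 4 (left 1, left 7, left 9 and right 6) and in between in 2. Position 27708748 in the same run had an SD of 27 points (n = 23), with right 5 at 90%, left 7 at 78% and right 3 at 60%, and 12 monkeys at 5% or less. Position 27555853 in run 22 had an SD of 28.9 points (n = 19). These 3 positions were chosen after their values had been seen.

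Monkeys differed in ways that ran through the runs of each class. Left 7 was above the median of the monkeys in 18 of 18 low runs, right 10 in 17 of 18 and left 9 in 16 of 18. Averaged over low runs, right 10 stood at 3.31%, left 7 at 3.11% and left 9 at 3.02%, where the median over monkeys was 1.97%. In low runs of the rest of the autosomes the same 3 monkeys came next after right 9 (4.29%), at 4.13%, 4.1% and 4.03%, where the median was 2.96%. Right 9 itself stood at 1.98% in low runs of the cluster, near the median there. In high runs, left 11 was below the median in 14 of 17. Its mean deviation from the position means there was -4.88 points, the lowest of the 23 monkeys, and right 9 came next at -3.35 points. Right 9 was below the median in 8 of 15 high runs and above it in 7, and was the lowest monkey in 4, so its deviation did not run through them. The cluster values per monkey followed those of the rest of the autosomes, with Pearson r = 0.835 and Spearman rho = 0.819 in low runs, and r = 0.768 and rho = 0.812 in high runs (n = 23). Both sides of these relations come from the same libraries, so no test is given.

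**Figure D4:**
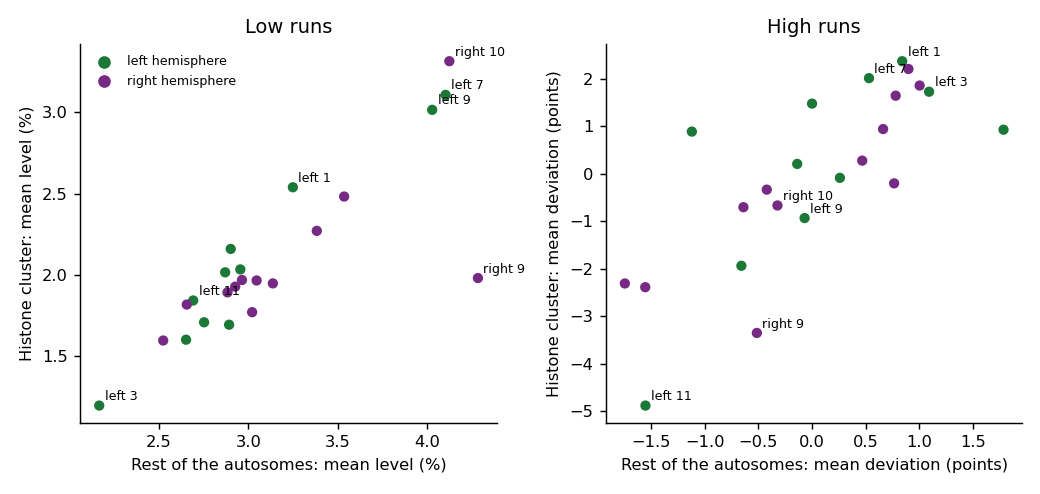
Each point is 1 monkey, with the rest of the autosomes on the x axis and the histone cluster on the y axis, for low runs (mean level in %) and high runs (mean deviation from the position means, in percentage points); green is left and purple right. Right 10, left 7 and left 9 are high on both axes in low runs, and left 11 is the lowest monkey of the cluster in high runs.

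Whether the cluster stood above or below its surroundings depended on how positions were weighted. The plain mean per monkey was 33.9% ± 2.47 (SD, n = 23). The rest of chromosome 6 averaged 26.3% ± 1.48 and the rest of the autosomes 29.9% ± 1.57. The cluster was higher than chromosome 6 by 7.6 points in 23 of 23 monkeys and higher than the autosomes by 4.08 points in 22 of 23 (sign-flip permutation p = 1e-05 for each, the smallest the 100000 flips can give, adjusted p = 1.5e-05 over 9 comparisons, 2-sided). With each run counted once the differences turned to -2.23 and -2.92 points, so the direction did not hold. At the positions with values in all monkeys they were 4.23 and 1.92 points. In runs of 3 to 9 positions the difference from the autosomes was -6.04 points, with the cluster lower in 22 of 23 monkeys, and in runs of 10 to 49 positions it was 4.58 points, with the cluster higher in 23 of 23 (sign-flip permutation, both adjusted p = 1.5e-05). With each run counted once the latter became -0.186 points (sign-flip permutation, adjusted p = 0.187). At positions with values in all monkeys, 7 of them in cluster runs of 3 to 9 positions, the former turned to 5.22 points (sign-flip permutation, adjusted p = 1e-05). Monkeys are the replicates here, so these tests concern the positions measured and not the stretch as a sample of the genome.

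The nearest stretch of like kind is that from 29 to 33 Mb of chromosome 6, which holds much of the major histocompatibility complex, with 1599 positions. It averaged 34.6% ± 2.05 (SD, n = 23). The mean difference was -0.642 points, with the cluster lower in 16 of 23 monkeys, which did not pass the sign-flip permutation test (p = 0.0599, adjusted p = 0.067). The difference passed without left 3 (-0.748 points, adjusted p = 0.0263), without right 4 (-0.769, adjusted p = 0.0186) and without right 7 (-0.731, adjusted p = 0.0361), each by the same permutation test. It also passed without right 9 and left 3 (-0.756, adjusted p = 0.0356), with each run counted once (-4.57, adjusted p = 1.5e-05) and at positions with values in all monkeys (-4.7, adjusted p = 1e-05), by that permutation test. In runs of 3 to 9 positions the difference was -3.15 points, with the cluster lower in 18 of 23 monkeys (sign-flip permutation, adjusted p = 0.00055), and it turned to 9.46 points at the positions with values in all monkeys, 7 in the cluster (adjusted p = 1e-05). In runs of 10 to 49 positions it was 0.04 points, with the cluster higher in 11 of 23 (sign-flip permutation, adjusted p = 0.9). It turned and passed with each run counted once (-3.55, adjusted p = 1.5e-05) and at positions with values in all monkeys (-3.77, adjusted p = 1e-05), by the same permutation test. It also turned without right 9 and left 3, to -0.192 points, and without left 3, right 4, right 6 or right 9 alone, without passing.

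The study treated temperament as a continuous trait with age as the only covariate. No position or run of the cluster passed for the score. Of the 389 positions 170 met the filters and were tested, and 0 were called by limma at an adjusted p of 0.05, as over the whole table (0.0%). An unadjusted p under 0.05 was reached by 4 positions, or 2.35%, against 3.12% of all positions tested, 1 with a positive and 3 with a negative slope. Of the 18 runs tested 0 were called (0.0% of all runs), and 0 had an unadjusted p under 0.05 (3.2% of all runs). The other 18 of the 36 runs with 3 or more positions did not meet the filters.

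The leading positions for the score lay in runs 23, 10 and 22, all of them high. At 27572082 the level ran from 86% over 95% (median) to 100%, and the fit gave -3.46 ± 1.42 points for each score unit (SE, n = 21), with an adjusted p of 1 by limma. At 26522535 the slope was 3.97 ± 1.65 (SE, n = 22) and at 27555943 it was -10.6 ± 4.83 (SE, n = 22), each with a limma adjusted p of 1. Among runs, number 10 led with 1.33 ± 0.706 points per score unit (SE, n = 22), then run 2 with -1.93 ± 1.13 (SE, n = 22) and run 23 with 2.81 ± 1.82 (SE, n = 23), each with a limma adjusted p of 1. The slopes thus went in both directions. With deviations from the position means in place of plain run means, they were 1.33 in run 10, -1.1 in run 2 and 0.85 in run 23. In run 23 the highest levels, 87.5% in right 12 and 85% in right 8, each came from 4 of 8 positions.

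The cluster level of a monkey, as the mean deviation of its values from the position means, ran from -2.65 points in left 11 to 1.67 points in left 1 (SD 1 point, n = 23). Set against the score it gave r = -0.168 (permutation p = 0.447, adjusted p = 0.67 over 3 tests) with rho = -0.0558 (permutation p = 0.8, adjusted p = 0.8). Left 11 has the highest score, and without it r was 0.0913. Without left 11 and right 4, the monkeys farthest from the median score, r was -0.00324. Among the 12 monkeys whose identifiers start with r it was 0.0737, and within the 11 starting with B -0.327. The labels do not say what these letters stand for.

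Age showed more small unadjusted p-values than the score, and none that passed. Limma called 0 of the 170 positions, against 0.0531% of all positions tested, and 0 of the 18 runs, against 0.0565% of all runs. An unadjusted p under 0.05 was reached by 14 positions, or 8.24%, against 4.06% of all, 11 with a positive slope. Such a p was reached by 3 runs, or 16.7%, against 4.81% of all, each with a positive slope. Without left 1, the oldest monkey, there were 9 positions, against 3.52% of all, and 1 run, which had a negative slope, against 3.33%.

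The 3 leading runs for age were unlike each other. In run 17 left 1 stood at 7.67%, while all other monkeys lay between 0.133% and 4.4%, and the fit gave 4.38 ± 1.46 points for each year (SE, n = 23), with an adjusted p of 0.744 by limma. Without left 1 this run fell below the range of 5 points and was not tested. Run 35 had a fitted slope of 44.6 ± 17.9 points with each year of age (SE, n = 20), with an adjusted p of 0.965 by limma. Leaving out left 1 gave 45.2 points per year, with an adjusted p of 1 by limma. The 3 oldest monkeys, left 1, right 2 and right 3, stood there at 77.8%, 74.8% and 62.5%, yet right 1 and right 7, both under the mean age, reached 72.8% and 65.3%. Run 15 had one of 8.34 ± 3.97 points (SE, n = 21), with an adjusted p of 0.999 by limma. Among single positions, 26254293 in run 7 led with -19.4 ± 5.11 points per year (SE, n = 20), at an adjusted p of 0.356 by limma. Leaving out left 1 gave -13.1. Next came 28112602 in run 35 with 45.4 ± 13.7 points per year (SE, n = 20) and 27114315 in run 17 with 6.59 ± 2.05 (SE, n = 23), at adjusted p of 0.616 and 0.644 by limma. Position 27114315 met the range of 10 points only with left 1 included, and without that monkey it was not tested.

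**Figure D5:**
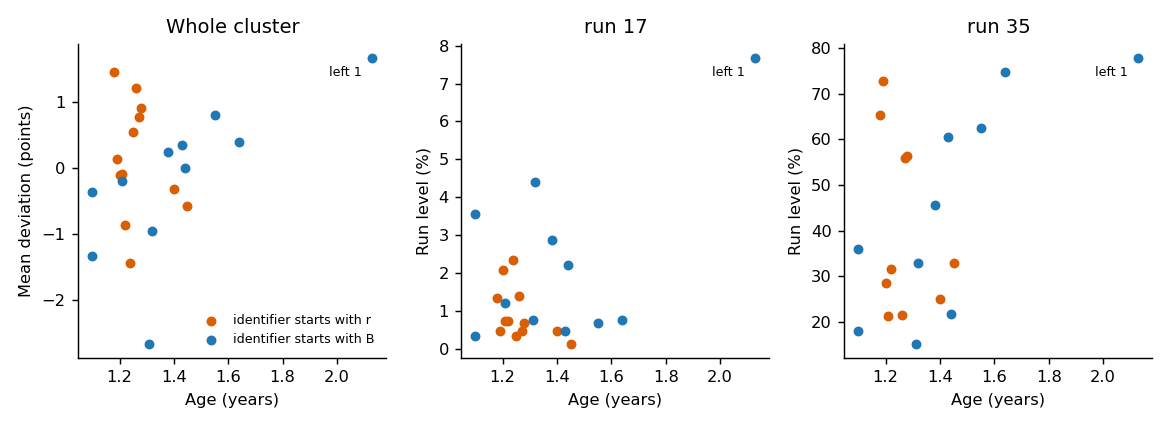
Cluster level (mean deviation in percentage points), level of run 17 (%) and level of run 35 (%) in each monkey against age in years, coloured by the first letter of the identifier. Left 1, at 2.13 years, is the highest point in each panel, and in run 17 it stands alone at 7.67%.

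Set against age, the cluster level gave r = 0.382 (permutation p = 0.0747, adjusted p = 0.224) and rho = 0.265 (permutation p = 0.219, adjusted p = 0.438). Without left 1 and right 2, the oldest monkeys, r was 0.125, but leaving them out also narrows the range of ages. With any single monkey left out, r ran from 0.166 to 0.461. It was -0.238 within identifiers starting with r and 0.698 within those starting with B, which include left 1 and right 2.

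Left and right samples differed in level by less than their spread. The 11 left samples had a cluster level of 0.0118 ± 1.16 points (SD, n = 11) and the 12 right ones of -0.0332 ± 0.891 points (SD, n = 12), a difference of -0.045 points (permutation p = 0.919, adjusted p = 0.919). In high runs the left mean was 72.1% ± 1.93 (SD, n = 11) and the right mean 72.2% ± 1.59 (SD, n = 12), and in low runs they were 2.08% ± 0.592 and 2.08% ± 0.45. Limma, with score and age in the model, called 0 positions and 0 runs, as over the whole table (0.0% each). An unadjusted p under 0.05 was reached by 3 positions, or 1.76%, against 3.48% of all, and 1 run of 18, against 3.12% of all. That run was number 35, with a left mean of 35.7% ± 21.4 (SD, n = 10), a right mean of 49.9% ± 18.9 (SD, n = 10) and a fitted difference of 15.8 ± 7.55 points (SE, n = 20, limma adjusted p = 0.975). The groups overlapped over most of their range.

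The leading positions for hemisphere were 28112607 in run 35, higher in right samples by 23.2 ± 8.8 points (SE, n = 20), 26522438 in run 10, with a right minus left difference of -4.87 ± 2.01 points (SE, n = 22), and 27366494 in run 20, higher by 6.7 ± 2.91 (SE, n = 20). Each had a limma adjusted p of 0.93. The interaction of score and hemisphere called 0 of 18 runs by limma (0.0% of all runs). Run 11 alone had an unadjusted p under 0.05, against 3.56% of all runs, with a slope that was 14.1 ± 6.69 points per score unit more positive in right samples (SE, n = 20, limma adjusted p = 1).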

How the data were processed

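DNA of the central amygdala nucleus of 23 rhesus monkeys, 1 library each, was profiled by reduced representation bisulfite sequencing. The authors deposited methylation levels as a fraction from 0 to 1, in steps of 0.01, with 1 column per monkey. Bismark 0.11.1 and the human build hg19 are named in the submitters' processing notes, with coverage filters not given in the sources used here, so the depth behind each level is unknown and no interval was computed.

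Fractions were multiplied by 100. A run is a series of positions with gaps of at most 200 bp, and its level in a monkey is the mean over the positions where that monkey had a value. Positions (range of at least 10 points) and runs (at least 3 positions, range of at least 5 points) with values in at least 20 monkeys were fitted over the whole table with limma 3.58.1 in R 4.3.3, with a variance trend. Score and age were terms, and hemisphere was added for its own test. The Benjamini-Hochberg adjustment ran over all 192151 positions or 21254 runs tested, 2-sided, with calls at an adjusted p under 0.05. When monkeys were left out, the minimum was the lower of 20 and 3 fewer than the monkeys kept. The fit was checked against limma and on simulated data. Values per monkey were tested with 100000 permutations or sign flips (Python 3.11.15, numpy 2.4.6). The cluster level of a monkey is the mean deviation of its values from the mean of each position. Bands of hg19 came from circlize 0.4.16.

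The named runs were those with the most positions (10), the highest level among runs of 10 or more positions (5), the largest SD (5) and the smallest p (3 for score, 3 for age, 1 for hemisphere). The 3 positions with the smallest p for each term were also named. The members and these rules were chosen with earlier results of these data known, and the limits of 20% and 50% between run classes after the run levels had been seen. No hg19 genome or annotation was used here, so runs carry neither gene names nor sequences. The planned coverage minimum was not run.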

Additional observations from a re-analysis of the deposited data

How the results depend on the processing

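No position or run of the cluster was called by limma for score, age, hemisphere or the interaction under any alternative run, from 29 to 32 for each. The lowest adjusted p was 0.101, for age positions without right 9 and left 3. The range of members with a limma unadjusted p under 0.05 was 6 to 23 for age positions and 1 to 10 for score positions. The number of positions tested changed between alternatives, so these counts are not shares and cannot be compared with each other. In the main fit they were 14 of 170 for age (8.24%, against 4.06% of all) and 4 of 170 for score (2.35%, against 3.12% of all). The complete sets of positions and runs, and run means with monkeys left out, were chosen after seeing the data. The differences from other stretches moved most, and the cause was not tested. With each run counted once they were -2.23 points against chromosome 6, -2.92 against the autosomes, -0.186 against the autosomes in runs of 10 to 49 positions, -4.57 against 29 to 33 Mb and -3.55 there in runs of 10 to 49, all of which passed except -0.186. At positions complete in all monkeys they were 6.24, 5.22 and 9.46 points in runs of 3 to 9 positions against chromosome 6, the autosomes and 29 to 33 Mb, where the cluster has 7 such positions. Against 29 to 33 Mb they were -4.7 points in all and -3.77 in runs of 10 to 49, and all 5 differences passed. Without right 9 and left 3 the difference from 29 to 33 Mb was -0.756 in all, which passed, and -0.192 in runs of 10 to 49, which did not, and right minus left was 0.133 points. With single monkeys left out, the ranges were -0.253 to 0.0913 for r with the score, -0.308 to 0.119 points for right minus left, -0.769 to -0.407 points against 29 to 33 Mb and -0.115 to 0.204 points there in runs of 10 to 49. Runs of 1 to 2 positions were not compared, since the cluster has 2 positions of that kind. The median SD over monkeys was 2.56 points without right 9 and left 3. Depth is unknown, so its effect was not examined. No paired analysis was possible because left and right samples came from different monkeys and the replicate numbers are only names.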
